A study of Caenorhabditis elegans with 12 samples.

Results

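The comparison described here is loss of adr-2 in animals fed control RNAi bacteria, read across all genes. Its members are 6 of the 12 libraries of the study: 3 from wild-type animals and 3 from adr-2(-) animals, taken from the deposited table that sets these columns against each other. That table lists 22427 genes, of which 13566 had a mean of at least 10 normalized reads over the 6 libraries and were tested. A normalized read count is a gene's reads divided by a scaling factor for its library.

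The study asked how the RNA-editing gene adr-2 and the RNA-binding protein gene sqd-1 act together on fertility in Caenorhabditis elegans, and crossed genotype with feeding RNAi in 4 groups of 3 libraries. The wild-type group was strain N2. The adr-2(-) group was strain BB20, which carries the deletion allele adr-2(ok735). Both groups were whole young adult worms hatched and grown on plates of bacteria with an empty RNAi vector, so neither had any gene targeted by RNAi. The series' design text gives 60 hours of growth and the growth protocol 72 hours for the same animals. Poly-A RNA was sequenced with a stranded kit. The adr-2(-) group is 1 strain with 1 allele, and the labels say neither how many worms were pooled nor whether the libraries of a group came from separate cultures. All p-values therefore measure the spread between these libraries, which may in part be technical.

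Adenosine deaminases acting on RNA (ADARs) bind double-stranded RNA and convert adenosine to inosine, which cells read as guanosine. In C. elegans the gene adr-2 encodes the catalytically active deaminase, and the protein acts with partners that control which transcripts it reaches and where in the cell it resides. ADARs are known in worms for their effects on chemotaxis, on small RNAs made from double-stranded transcripts, and on transcripts that hold long inverted repeats. RNA abundance is what was measured here; editing itself was not.

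The libraries held 29578162 to 33984832 reads, and 13310502 to 23803720 of them lay outside ribosomal RNA genes. Ribosomal RNA genes took 43.5% to 54.2% of reads in the wild-type libraries, and 45.3%, 55.9% and 28.97% in adr-2(-) replicates 1, 2 and 3. Of 79 markers of 9 tissues and cell types, 74 were matched and passed the filter, among them body wall muscle, intestine, neuron and germline markers. Yolk protein, eggshell and sperm genes were all read, as in adult hermaphrodites. The transcription factor gene ceh-22, a pharynx marker, and the epidermal gene hch-1 lay below the filter, at no more than 3.20 and 1.61 normalized reads in any library.

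The adr-2(-) replicates 2 and 3 stood apart from the other libraries, each in its own set of genes. On the first principal component, which held 50.1% of the variance, adr-2(-) replicate 2 scored -103.4 while the other libraries scored between -6.48 and 38.4. On the second, which held 38.1%, adr-2(-) replicate 3 scored -89.6 and the others between 0.317 and 42.3. Replicate 2 lay at least 2-fold outside all 5 other libraries for 1446 genes, of which 1330 were lower, and replicate 3 for 845 genes, of which 826 were lower. The same count was 29 genes for adr-2(-) replicate 1 and 19 to 29 for the wild-type libraries. The median SD of log2 values was 0.199 in wild-type and 0.449 in adr-2(-), and 11528 genes, 85.0% of those tested, had the larger SD in adr-2(-). Values below are therefore given by library for the genes described in full, and without a library where leaving it out moved a value by much.

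**Figure D1:**
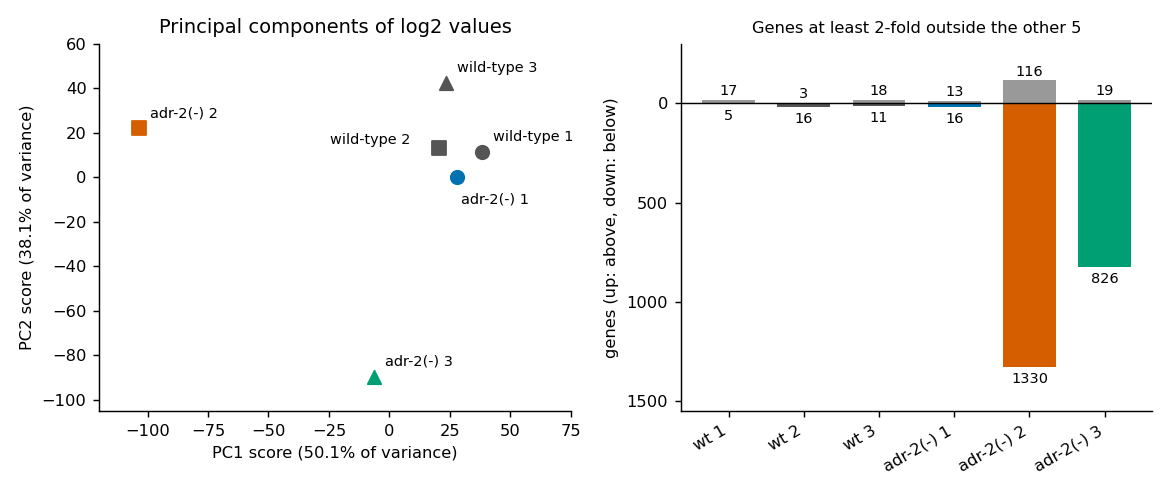
Left, scores of the 6 libraries on the first and second principal components of log2(normalized reads + 1) over 13566 genes, one point per library. Right, the number of genes for which a library lay at least 2-fold above (up) or below (down) all 5 others; the counts of adr-2(-) replicates 2 and 3 below the others are 1330 and 826, and no wild-type bar is above 18.

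Among the genes lowest in replicate 2 were 262 with a wild-type mean of at least 1000. The 12 furthest below wild-type, chosen after their values were seen, stood at 1.62% to 4.73% of the wild-type mean. For rad-50, a DNA double-strand break repair gene, the wild-type libraries had 2607, 1764 and 1324 normalized reads, and the adr-2(-) libraries had 2492, 30.7 and 3374. The splicing factor gene mfap-1 had 2099, 1895 and 1553 in wild-type and 1842, 64.6 and 2955 in the mutant libraries. In both genes replicates 1 and 3 of adr-2(-) lay within or above the wild-type range and replicate 2 alone was low. Among the RNAi genes, dcr-1 (Dicer) had 3253, 3688 and 2484 in wild-type against 3225, 215 and 4462 in the mutant libraries, and rde-1, an Argonaute of exogenous RNAi, 1575, 1593 and 1272 against 1588, 189 and 2183. Of 373 pseudogenes tested, 115 were also at least 2-fold below all others in this library, beside 1330 of all 13566 genes tested. The genes at least 2-fold above all others in replicate 2 numbered 116 of 13566 and included 28 of 78 ribosomal protein genes.

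The genes lowest in replicate 3 included many cuticle collagens and major sperm protein genes. Of 120 collagen genes tested, 69 were at least 2-fold below all other libraries in replicate 3, as were 23 of 27 major sperm protein genes. Over all genes tested, 826 of 13566 were. For the collagen gene col-175 the wild-type libraries had 636, 976 and 1476 normalized reads, and the adr-2(-) libraries 423, 1427 and 7.81. For col-77 they had 1157, 1549 and 2363 against 932, 2018 and 16.3. Both genes were near absent from replicate 3 alone, at 0.759% and 0.966% of the wild-type mean. Cuticle collagens are known to be transcribed in bursts around each moult.

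These library differences were also seen on sqd-1 RNAi, in libraries that share no sample with the present ones. Of the 1330 genes lowest in adr-2(-) replicate 2, 988 (74.3%) were again at least 2-fold below the other 5 libraries in the adr-2(-) library numbered 2 on sqd-1 RNAi, against 14.1% of all 14697 genes tested there. Of the 826 lowest in replicate 3, 310 (37.5%) were so in the adr-2(-) library numbered 3, against 5.33% of all genes. In the other 5 sqd-1 RNAi libraries at most 8 of the 1330 were, and of the 826 at most 57. The adr-2(-) libraries of one number thus differed from the rest in many of the same genes on both RNAi treatments. What a number stands for is not given in the labels, and the cause of these differences was not tested.

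**Figure D2:**
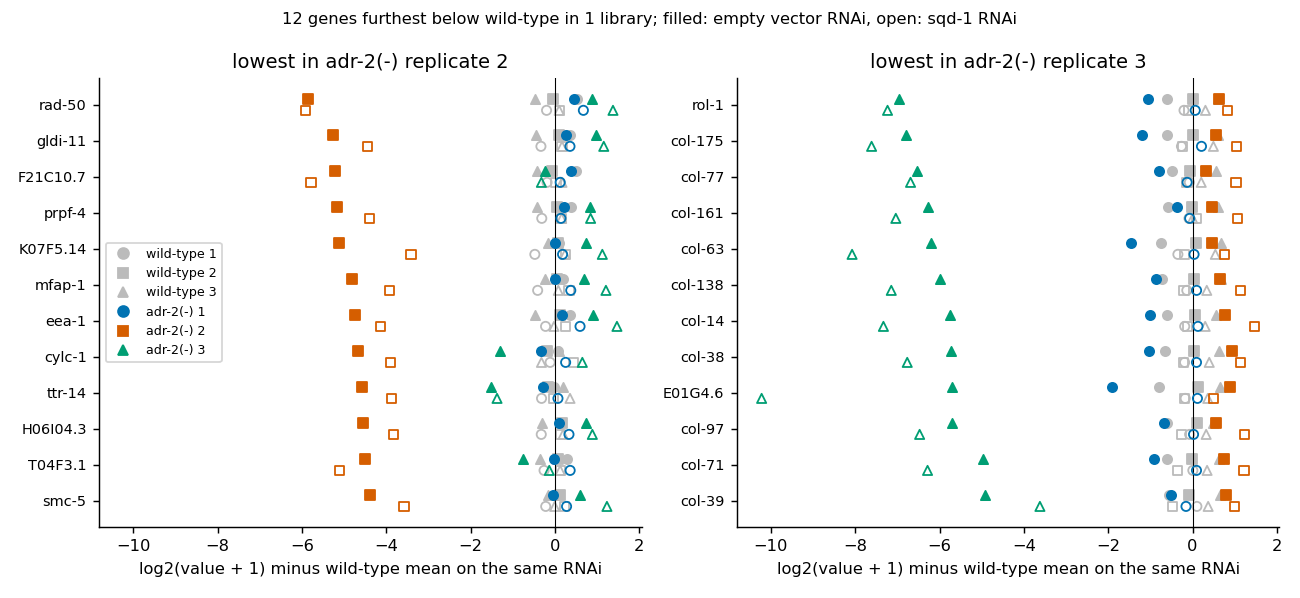
The 12 genes with a wild-type mean of at least 1000 that were furthest below wild-type in adr-2(-) replicate 2 (left) and in replicate 3 (right), as log2(normalized reads + 1) minus the wild-type mean on the same RNAi; filled symbols are empty vector libraries and open symbols sqd-1 RNAi libraries. On each side a single adr-2(-) replicate lies far left on both RNAi treatments, with rad-50 at -5.85 and rol-1 at -6.96 on the empty vector.

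The targeted gene itself was lost in all adr-2(-) libraries and was the only gene called. The gene adr-2 (WBGene00000080) is protein coding and lies on the minus strand of chromosome III at 7231039 to 7232882 (WBcel235 annotation). The wild-type libraries had 769, 918 and 765 normalized reads, and the adr-2(-) libraries 1.87, 3.23 and 1.42, which is 2 reads in each. The groups did not overlap, at 817 ± 87.1 against 2.17 ± 0.943 (SD, n = 3 each). Since 2 reads lie under the floor of 3 reads per library, the difference is at least 169-fold lower in adr-2(-), set against the highest of the 3 floors, 4.84 normalized reads. Reads carry no molecular identifiers, so this floor covers counting error only. The fitted log2 difference was -8.05 ± 0.32 (SE; limma adjusted p = 0.000256), and it ran from -8.27 to -7.87 when each library was left out in turn.

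Of the 13566 genes tested, 1 was called at an adjusted p under 0.05 (limma with Benjamini-Hochberg adjustment), which is 0.00737% of them. The next smallest adjusted p was 0.600. Without adjustment, 1008 genes (7.43%) had a limma p under 0.05, of which 179 (1.32%) were higher in adr-2(-) and 829 (6.11%) lower, where 678.3 genes would be under 0.05 by chance alone. That count rested on single libraries: it was 197, 407 and 549 without wild-type replicate 3, 1 and 2, and 3187, 1462 and 489 without adr-2(-) replicate 1, 2 and 3. The number called stayed at 1, adr-2, in each of these fits, although the next smallest adjusted p was 0.0557 without adr-2(-) replicate 1. edgeR's quasi-likelihood test and DESeq2 on the recovered reads also called 1 gene each, with 816 and 980 at an unadjusted p under 0.05. In the authors' deposited table, adr-2 was likewise the only gene with an adjusted p under 0.05, at a log2 fold change of -8.71 ± 0.653 (SE) and an adjusted p of 3.08e-36.

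Differences in the other genes were mostly small, and the balance of their directions varied with the fit. The median log2 difference over all genes tested was -0.04, with quartiles at -0.42 and 0.25; it was 0.04 without adr-2(-) replicate 2 and with a mean of at least 50. Lower genes outnumbered higher ones at an unadjusted p under 0.05 (limma, edgeR or DESeq2) in every fit except limma without adr-2(-) replicate 1. In that fit 1639 were higher and 1548 lower, and with edgeR 276 were higher and 540 lower. A log2 difference of at least 1 was seen for 36 genes above (0.265%) and 1426 genes below (10.5%) the wild-type mean. For 1883 genes (13.9%) the libraries of the groups did not overlap: 688 (5.07%) lay higher and 1195 (8.81%) lower in adr-2(-). Every gene named below had a limma adjusted p of at least 0.600, so its values are a description, not a change that passed the test.

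The partner gene adbp-1, whose protein binds ADR-2 and keeps it in the nucleus, had more reads in adr-2(-). Its wild-type libraries had 517, 482 and 527 normalized reads and its adr-2(-) libraries 571, 883 and 741. The groups did not overlap, and adr-2(-) replicate 1 lay closest to wild-type. The log2 difference was 0.50 ± 0.21 (SE; limma adjusted p = 0.600), and 0.36 without replicate 2. The gene sqd-1, which was not targeted in either group, had 11447, 14380.0 and 13518 reads in wild-type and 11092, 26231 and 16674 in the mutant libraries. These groups overlapped, and the log2 difference of 0.37 ± 0.33 (SE; limma adjusted p = 0.666) was 0.06 without replicate 2.

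**Figure D3:**
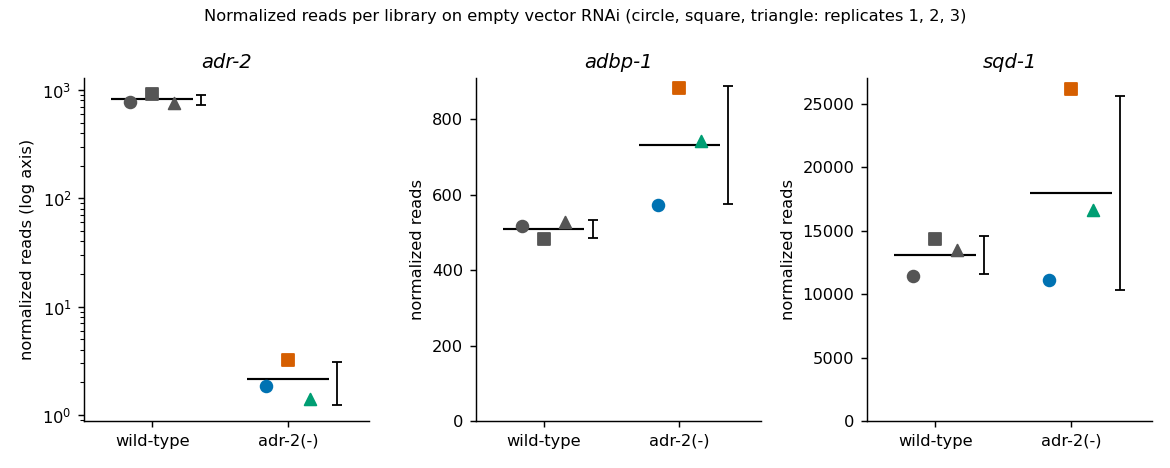
Normalized reads of adr-2 (log axis), adbp-1 and sqd-1 in each library on the empty vector; horizontal lines are group means and error bars the SD (n = 3). All 3 adr-2(-) libraries have under 4 normalized reads of adr-2, and replicate 2, the square, is the highest for adbp-1 and sqd-1.

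Transcripts that earlier work linked to worm ADARs gave no call. Of 6 listed, 5 were tested and 1 is not analysed here. The non-coding RNA rncs-1, a partly double-stranded transcript known to inhibit Dicer, had 650.0, 120.2 and 207 normalized reads in wild-type and 103.6, 121 and 39.8 in the mutant libraries. The groups overlapped, and wild-type replicate 1 stood well above the other 5 libraries. Its log2 difference was -1.66 ± 0.67 (SE; limma adjusted p = 0.600), and -0.98 without that library. The laminin gene lam-2 differed by -0.11, alh-7 by -0.07, C35E7.6 by -0.22 and the C-type lectin gene clec-41 by 0.01 on the log2 scale, all with overlapping groups. The sign for alh-7 and clec-41 turned when single libraries were left out.

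Besides adr-2, 12 genes with higher and 11 with lower values were named by a rule that asked for an unadjusted limma p under 0.05, groups that did not overlap and, in whichever group was higher, at least 100 normalized reads on average; 108 genes above and 294 below met it. The 12 highest had means of 186% to 231% of wild-type. Y40A1A.6, a non-coding RNA, had 351, 246 and 282 normalized reads in wild-type and 523, 938 and 571 in the mutant libraries, a log2 difference of 1.17 ± 0.28 (SE). The snoRNA gene C14E2.12 had 54.7, 50.9 and 74.5 against 135, 161 and 102 (log2 difference 1.13 ± 0.29, SE). For ugt-61, a UDP-glucuronosyltransferase gene of the detoxification enzymes, the values were 1806, 2649 and 1993 against 3889.6, 4550.3 and 3633 (0.92 ± 0.21, SE). In these genes all 3 adr-2(-) libraries lay above all wild-type libraries, as the rule required, with replicate 2 the highest.

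The cadmium-responsive gene cdr-1 had 158, 230.1 and 166 normalized reads in wild-type and 329.6, 368 and 332 in the mutant libraries, with a log2 difference of 0.91 ± 0.23 (SE). It was among the named genes with the least spread in adr-2(-), at 343 ± 21.5 (SD, n = 3), and its difference was 0.86 without replicate 2. The neighbouring genes F23A7.8 and F23A7.4 on chromosome X had log2 differences of 0.99 and 0.96. C50E3.12 differed by 1.13, lido-13 by 1.00, F12E12.1 by 0.98, F19B10.1 by 0.94, F26G5.1 by 0.91 and cpg-8, a chondroitin proteoglycan gene, by 0.83. Without replicate 2, F19B10.1 differed by 0.60 and cpg-8 by 0.53. F12E12.1 and cpg-8 overlap a gene on the opposite strand, and since the use of strand in counting is not given in the sources used here, their reads may not be told apart from that gene's.

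The 11 lowest besides adr-2 had means of 23.8% to 35.1% of wild-type, and in each adr-2(-) replicate 1 lay nearest to wild-type. The pseudogenes among them were WBGene00021265, WBGene00019169, WBGene00019912 and WBGene00022079; the first overlaps another gene. WBGene00019169 had 181, 162 and 249.8 normalized reads in wild-type and 109, 17.8 and 14.2 in the mutant libraries, a log2 difference of -2.63 ± 0.72 (SE). The protein-coding gene cylc-2 had 607, 444 and 544 against 385, 24.2 and 138 (-2.25 ± 0.87, SE), and F36H12.5 had 234.6, 216 and 295 against 142, 11.3 and 58.9 (-2.39 ± 0.80, SE). Without replicate 2 these 3 differences were -2.25, -1.19 and -1.42. F26D2.10, F36D3.5, F54F12.1, B0379.2 and C54D10.4 made up the rest, at -2.38 to -2.13. Without replicate 2, F26D2.10 differed by -1.52, F36D3.5 by -1.24, B0379.2 by -1.20 and C54D10.4 by -1.36. The genes cylc-2, F54F12.1 and C54D10.4 overlap a gene on the other strand.

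**Figure D4:**
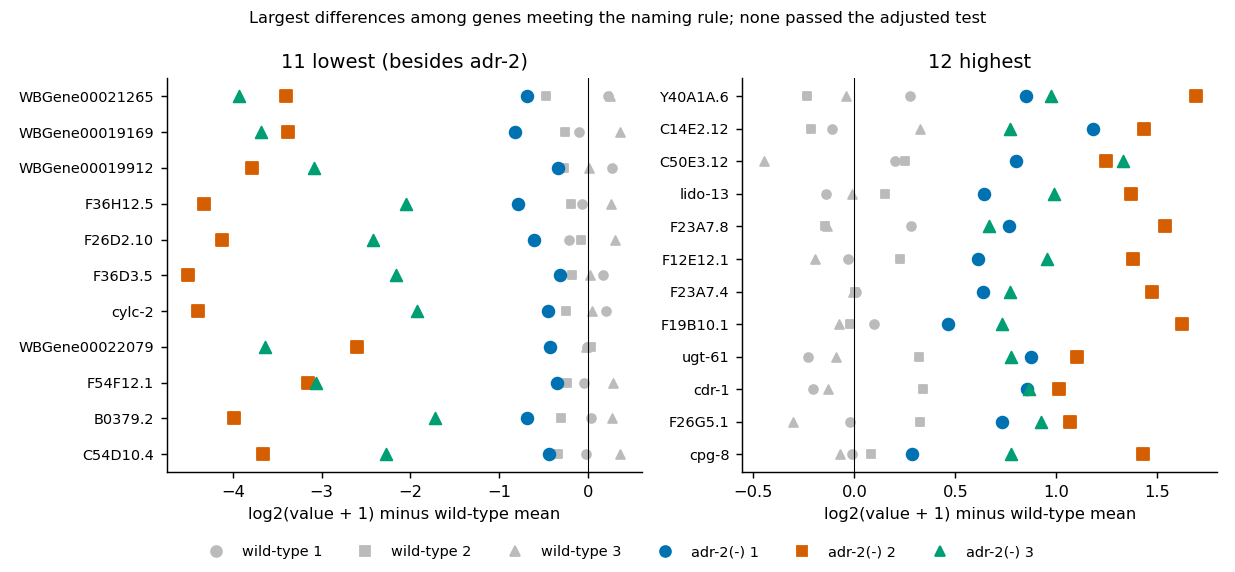
Log2(normalized reads + 1) minus the wild-type mean for the 11 named genes lowest in adr-2(-) besides adr-2 (left) and the 12 highest (right), one point per library. By the naming rule, all 3 adr-2(-) libraries lie above wild-type on the right and below it on the left. On the left replicate 1 lies nearest to wild-type and replicates 2 and 3 far below it.

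The same genes lay on the same side in the animals fed sqd-1 RNAi, whose 6 libraries are all others. Of the 12 higher genes, 12 had a log2 difference above 0 there, and for 5 of them the groups did not overlap, against 14.5% of all 14697 genes tested there. F26G5.1 differed by 3.17 and F12E12.1 by 3.01, while F23A7.4 differed by 0.07. All 11 lower genes had a difference below 0 (-1.89 to -0.67), and 3 did not overlap, against 10.2% of all genes. No gene was called on sqd-1 RNAi (0.0% of 14697), where adr-2 itself had a log2 difference of -7.89 and a limma adjusted p of 0.157. The same-numbered adr-2(-) libraries of the RNAi treatments deviated from their group means together, with correlations of 0.66 to 0.84 over 13566 genes. The shared direction of the named genes is therefore not an independent repeat. The test of the difference itself, an interaction of genotype and RNAi over 12 libraries, called 0 of 14266 genes (0.0%; limma, 205 at an unadjusted p under 0.05). That fit took no account of the correlations between same-numbered libraries. With a replicate block within each genotype the interaction again called 0, with 1419 at an unadjusted p under 0.05. By chance alone 713.3 genes would be under 0.05 in either fit. The lack of calls does not show that the genotype differences were equal on both RNAi treatments.

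Sperm genes were lower in adr-2(-) in most of their members. Of 36 tested, 32 lay below and 4 above the wild-type mean, none was called, 16 had an unadjusted limma p under 0.05 and lay lower, and 19 (52.8%) were lower without overlap. Over all genes those shares were 6.11% and 8.81%. Their median log2 difference was -1.11, beside -0.04 over all genes, and the 3 adr-2(-) libraries had medians of -0.35, -1.13 and -1.71. Those of the wild-type libraries ran from -0.18 to 0.28. Without replicate 3 the list's median was -0.74, and without replicate 1 -1.49. In bulk RNA from whole worms, fewer cells of a type and less RNA per cell cannot be told apart.

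Sperm genes differed in how the libraries ranked. The gene spe-51, which encodes a sperm protein needed for fertilization, had 21.3, 24.3 and 23.2 normalized reads in wild-type and 6.54, 3.23 and 7.81 in the mutant libraries, a log2 difference of -1.87 ± 0.42 (SE; limma adjusted p = 0.600). All 3 adr-2(-) libraries were low for it, but these values rest on few reads. Replicate 2, at 3.23, lay under its floor of 3 reads, which is 4.84 normalized reads, so the size of this difference is uncertain. The myosin gene spe-15, which acts when organelles are sorted between sperm and residual body, had 1229, 1090.2 and 1267 against 854, 454 and 402 (-1.15 ± 0.30, SE), though it overlaps genes on both strands. Replicates 2 and 3 were lower than replicate 1 there, as for msd-4, at 1501, 1296 and 1988 against 1337, 578 and 533. The exceptions included spe-39, a vesicle trafficking gene also used outside sperm, with 998, 1241 and 1119 against 1074, 1637 and 1494.

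Single sperm genes were far below the rest in 1 library. Of the 36 sperm genes tested, 5 were at least 2-fold below all other libraries in replicate 2 and 11 in replicate 3. Over all 13566 genes tested, those counts were 1330 and 826. The share of sperm genes was thus close to that of all genes in replicate 2, and larger than it in replicate 3. For spe-11, a sperm-supplied factor of egg activation, the wild-type values were 549.9, 350.3 and 347 and the adr-2(-) values 407, 30.7 and 168. The sperm phosphatase gene gsp-3 had 682, 812 and 1105 against 737, 885 and 209. Replicate 2 was lowest for the first and highest of the adr-2(-) libraries for the second. Beside them, alg-3, an Argonaute of spermatogenesis, had 667, 665 and 906 against 555, 505 and 147, and fog-3, which is needed for germ cells to become sperm, had 25.04, 27.7 and 31.2 against 15.9, 17.8 and 11.4.

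The major sperm protein genes did not follow that pattern. These near-identical gene copies encode the cytoskeletal and signalling protein of sperm, and reads may be split between them in counting. Of 27 tested, 26 lay below the wild-type mean, but none was without overlap and the median was only -0.27. The adr-2(-) libraries' medians were -0.09, 0.74 and -1.48, and those of the wild-type libraries ran from -0.26 to 0.38. Without replicate 3 the list's median turned to 0.34. It was -0.80 without replicate 2 and -0.11 without wild-type replicate 3. For msp-36 the values were 2299.7, 2646 and 3674 in wild-type and 2449, 5191 and 1099.6 in the mutant libraries, so the adr-2(-) group held both the highest and the lowest library.

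Oocyte and early embryo genes lay slightly higher in all members tested. All 32 had a log2 difference above 0, with a range of 0.19 to 0.77 and a median of 0.56, while 47.0% of all genes lay above 0. None was called. Of the 32, 6 had an unadjusted limma p under 0.05, where 1.32% of all genes did and lay higher. For 2 (6.25%) the groups did not overlap, close to the 5.07% over all genes. The medians of the adr-2(-) libraries were 0.12, 0.85 and 0.61, and those of the wild-type libraries ran from -0.12 to 0.23. Without replicate 2 the list's median was 0.36.

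The maternal germ granule gene meg-1 had 1388, 1822 and 1515 normalized reads in wild-type and 2155, 2611 and 2381 in the mutant libraries, a log2 difference of 0.60 ± 0.19 (SE; limma adjusted p = 0.600). All its adr-2(-) libraries lay above wild-type. The eggshell proteoglycan gene cpg-2 had 17189.6, 22584 and 18329 against 19701, 45766 and 32282, and cbd-1, which encodes a chitin-binding protein of the egg covering, 34300.5, 45577 and 32549 against 40516, 79977 and 55682. In both, adr-2(-) replicate 1 fell inside the wild-type range. On sqd-1 RNAi this list's median difference was 1.98, with library medians of 1.07, 2.59 and 2.27. The interaction called 0 of all 14266 genes, so the lack of calls in this list says nothing particular about it.

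Other germline lists lay a little higher, with replicate 1 at the wild-type level. Medians were 0.31 for 33 genes of germline proliferation and meiosis, 0.26 for 22 genes of germline sex determination and 0.22 for 12 germ granule genes. Without adr-2(-) replicate 3 they were 0.18, 0.14 and 0.08. The meiotic cohesin gene rec-8 had 1482, 1841 and 1596 in wild-type and 1581, 3410 and 2244 in the mutant libraries. The meiotic break gene spo-11 went the other way, at 608, 664 and 623 against 591, 103 and 865, with replicate 2 alone low. All 6 yolk protein genes lay above the wild-type mean (0.29 to 0.46), with overlapping groups throughout; their median of 0.35 was 0.21 without wild-type replicate 3. The germ granule RNA helicase gene glh-1 had a difference of 0.06, and its sign turned with a single library.

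The genes of RNAi and small RNA pathways, in which Dicer, Argonautes and RNA-dependent RNA polymerases make and use short guides, showed no common direction. Of 41 tested, 27 lay above and 14 below the wild-type mean, none was called, none had an unadjusted limma p under 0.05, and the median was 0.16. The germline Argonaute gene hrde-1 had 10360.0, 14691 and 10895 normalized reads in wild-type and 12211, 20967 and 16709 in the mutant libraries. It was 0.46 higher on the log2 scale with overlapping groups, and 0.27 without replicate 2. In replicate 2, 8 of the 41 were at least 2-fold below all other libraries, beside 1330 of all 13566 genes tested. Among the 8 were dcr-1, rde-1 and the polymerase gene ego-1. The last had 3167, 3756 and 2874 in wild-type and 3372, 889.7 and 4009 in the mutant libraries. The list's median was 0.04 without replicate 3, 0.23 without replicate 2 and 0.10 without wild-type replicate 3.

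Cuticle collagens gave a low median that rested on 1 library. Of 120 tested, 85 lay below the wild-type mean with a median of -0.90, but the library medians were -0.44, 0.74 and -2.62, and the list's median was 0.04 without replicate 3, -1.78 without replicate 2 and -0.56 without wild-type replicate 3. The wild-type library medians of the collagens ran from -0.41 to 0.49. Only 3 collagen genes (2.50%) were lower without overlap, fewer than the 8.81% over all genes. The most abundant members were not low: col-140 had 42110.3, 43378 and 50441 in wild-type and 41686, 103913 and 49420.1 in the mutant libraries. The 18 moulting genes had a median of -0.41, with -0.64, 0.50 and -0.55 in the adr-2(-) libraries and from -0.35 to 0.43 in wild-type. The median of these genes was -0.13 without adr-2(-) replicate 3 and -0.21 without wild-type replicate 3. Among them qua-1, which encodes a hedgehog-related protein needed for moulting, had 133, 125 and 247 against 72.8, 56.5 and 44.7, a log2 difference of -1.48 ± 0.35 (SE; limma adjusted p = 0.600). All 3 adr-2(-) libraries were below all wild-type libraries for this gene, which overlaps another on the opposite strand.

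For ribosomal protein genes the size of the difference likewise rested on 1 library. Of 78 tested, 77 lay above the wild-type mean with a median of 0.41, and the library medians were 0.02, 1.18 and 0.06. The wild-type library medians ran from -0.26 to 0.21. Without replicate 2 the list's median was 0.04. The gene rpl-3 had 61917, 74482 and 82886 normalized reads in wild-type and 70395, 165279 and 75464 in the mutant libraries. Deviations varied with transcript length in this library and in others. Over the 1004 genes with up to 500 exonic bases, replicate 2 had a median deviation of 0.24 from the wild-type mean. Over the 374 genes above 5000 bases it was -0.52. In replicate 3 the same medians were -0.27 and 0.05, with 0.21 for genes of 2000 to 3000 bases, and in replicate 1 0.12 and 0.04. Across 6 bins of rising length the median of replicate 2 fell at each step, as did that of wild-type replicate 3, from 0.18 to -0.19. Those of wild-type replicates 1 and 2 rose, from -0.12 to 0.03 and from -0.07 to 0.17. The median exonic length was 521.5 bases for the ribosomal protein genes, 3106 for the RNAi genes and 1394 over all genes tested, and the part of length in these results was not tested.

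The lists of C-type lectin, detoxification, stress and neuropeptide genes had medians near that of all genes. Medians were -0.03 for 87 C-type lectin genes, -0.07 for 132 detoxification genes, 0.02 for 19 stress genes and -0.00 for 106 neuropeptide genes. Without adr-2(-) replicate 2 and without replicate 3 they moved to -0.22 and 0.10 for the lectins and to -0.24 and 0.31 for the neuropeptides. The lectin gene clec-260 had 38.0, 30.1 and 48.8 in wild-type and 10.3, 14.5 and 4.26 in the mutant libraries, a log2 difference of -2.01 ± 0.48 (SE; limma adjusted p = 0.600). Among the detoxification genes ugt-62 had 3419, 3297 and 2698 against 4352, 4531 and 4588, and ugt-66 165, 114 and 158 against 87.8, 69.4 and 77.4. In neither gene did the groups overlap, and the 3 adr-2(-) libraries lay close together in both. The heat shock gene hsp-70 had 156, 145 and 707 against 162, 8.07 and 48.3, where wild-type replicate 3 and adr-2(-) replicate 2 stood at opposite ends; its difference of -2.60 was -1.50 without the latter.

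Genes of the intracellular pathogen response, a set of pals and ubiquitin ligase genes switched on by viruses and microsporidia, were low in all libraries. Of 47 members, 33 lay below the filter, and of the 14 tested 12 were below the wild-type mean, with a median of -0.40. It was -0.22 without adr-2(-) replicate 2 and -0.17 without the filter. For 4 of them (28.6%) the groups did not overlap, against 8.81% over all genes. The gene pals-24 had 116, 139 and 128 normalized reads in wild-type and 96.2, 29.1 and 89.4 in the mutant libraries. Its difference of -0.999 ± 0.47 (SE; limma adjusted p = 0.600) was -0.45 without replicate 2, and it overlaps a gene on the other strand.

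**Figure D5:**
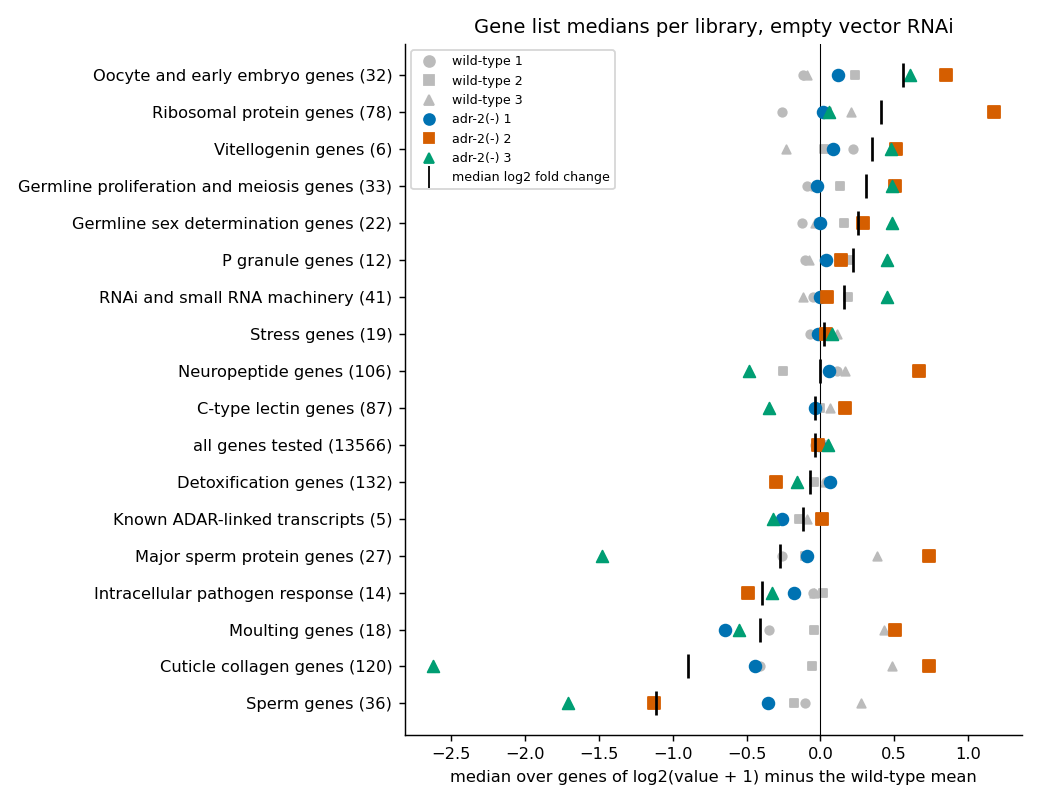
Median over the tested members of each list (number in parentheses) of log2(normalized reads + 1) minus the wild-type mean, one point per library, with a bar at the median log2 difference of the groups. The sperm and oocyte lists have all 3 adr-2(-) libraries on one side of 0. So do others, among them the ribosomal protein, yolk protein, germ granule and pathogen response lists. The collagen, major sperm protein and ribosomal protein medians are carried by a single adr-2(-) library.

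Genes within 20 kb of adr-2 were 7 in number, and none was called. The nearest is ndus-8, a subunit gene of respiratory complex I on the same strand of chromosome III (7232926 to 7234202), whose end lies 44 bases upstream of the start of adr-2. It had 2485, 2452 and 3057 normalized reads in wild-type and 1588, 2630.4 and 1459 in the mutant libraries, a log2 difference of -0.54 ± 0.26 (SE; limma adjusted p = 0.600) with overlapping groups. The zinc finger gene ztf-31, 8.48 kb away, had 72.3, 72.8 and 84.9 against 50.4, 53.3 and 26.3, without overlap (-0.87 ± 0.35, SE; -0.55 without adr-2(-) replicate 3). The prolyl-tRNA synthetase gene pars-1, which lies between them, differed by -0.20. Over the 366 genes tested within 1 Mb of adr-2 the median was 0.01, and over the 1801 further away on chromosome III it was 0.08.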

How the data were processed

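Whole-worm poly-A RNA was sequenced in 12 libraries, of which the 6 on the empty vector were compared. Per the submitters' processing notes, STAR 2.7.10b and DESeq2 were used; the counting tool, its use of strand and the genome build are not given in the sources used here. The authors deposited normalized read signal, that is read counts divided by 1 factor per library within each table. All 275772 values (100.0%) came out as whole reads within 0.01. Their deposited tables also hold log2 fold changes, a test statistic (a score) and p-values, quoted only where named. The analysis drew on 2 of the 5 tables deposited, and 18 columns of per-sample values were not used.

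The log2(signal + 1) values of genes with a mean of at least 10 were tested with limma 3.58.1 (moderated test with a mean-variance trend, two-sided, Benjamini-Hochberg adjustment, R 4.3.3), and fold changes on this scale understate low genes. The main test uses normalized signal, not counts; edgeR 4.0.16 and DESeq2 1.42.0 on the recovered reads, other scalings, filters, pseudocounts, weights, a replicate block and leaving out each library were alternatives. The code was tested on simulated data. Genes were named by the rule given in the text, without annotated rRNA genes, plus, in each list, the 3 most abundant members and the member with the smallest p in each direction, all members of lists of up to 6 genes, and genes within 20 kb of adr-2. Genes shown for standing apart in 1 library were chosen after their values were seen. Members and lists were chosen with earlier results of these data known. Of the list names, 12 matched no gene. Coordinates and overlaps come from the WBcel235 annotation, which held 22411 of 22427 identifiers.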

Additional observations from a re-analysis of the deposited data

How the results depend on the processing

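The call of adr-2 and of no other gene held under all 19 alternatives run, and the adr-2 log2 fold change on control RNAi ran from -8.72 (DESeq2) to -6.08 (pseudocount 10). The replicate numbers did not pair wild-type with adr-2(-) libraries: deviations of same-numbered libraries correlated at 0.22, 0.03 and -0.55. With a replicate block, 1 gene was called, 929 genes had an unadjusted p under 0.05 and adr-2 an adjusted limma p of 0.0107. Without a filter 1523 of 22427 genes had an unadjusted p under 0.05, with a mean of at least 50 it was 601 of 10162, and with array weights 1466. No scaling moved the median of all genes by over 0.1. The number of libraries and the spread of adr-2(-) limit what could be called, and low genes have few reads.

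The median of the pathogen response list was -0.17 without a filter and ran from -0.47 to -0.22 over libraries left out. The median SD in wild-type was 0.20 and 0.183 with pseudocounts of 0.1 and 10, 0.172 with a mean of at least 50 and 0.151 with one of at least 1000, where that of adr-2(-) was 0.384. Signs turned, the cause not tested, for clec-41 (-0.0044 with TMM, -0.32 with array weights), msp-36 (0.0052 with edgeR, 0.011 with DESeq2), msp-81 (0.048 and 0.055), and, with array weights, msp-79 (-0.043), col-124 (-0.012) and hsp-3 (-0.10), and for nas-37 (0.022) with all 12 libraries. Leaving out single libraries turned signs over these ranges: R151.2 -0.013 to 0.15, alh-7 -0.23 to 0.025, clec-41 -0.49 to 0.36, clec-63 -0.13 to 0.63, col-124 -0.12 to 0.29, cyp-13A6 -0.30 to 0.95, glh-1 -0.16 to 0.30, gst-1 -0.023 to 0.26, hsp-3 -0.14 to 0.19, msp-36 -0.78 to 0.34, msp-76 -0.69 to 0.34, msp-79 -0.13 to 0.75, msp-81 -0.80 to 0.36, nas-37 -0.11 to 0.00085, nlp-27 -0.57 to 0.12, nlp-40 -0.10 to 0.32, pars-1 -0.47 to 0.10, pgl-2 -0.67 to 0.043, rpl-7 -0.034 to 0.43, rps-0 -0.027 to 0.69 and spo-11 -1.35 to 0.18.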

Other observations

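Pseudogenes, chromosomes and tissue markers were also compared. Of 373 pseudogenes tested, 273 lay below and 100 above the wild-type mean, with a median log2 difference of -0.38. The medians of adr-2(-) replicates 1, 2 and 3 were 0.07, -1.20 and 0.19, and without replicate 2 the median was 0.16. Median differences by nuclear chromosome ran from -0.10 on V to 0.07 on III. The 12 mitochondrial genes had medians of -1.03, 1.29 and -0.09 in the adr-2(-) libraries and from -0.61 to 0.60 in wild-type.

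Among the tissue markers, all 7 pharynx genes tested lay lower, with a median of -0.51, none without overlap. Their summed level was 2999 to 4150 normalized reads in wild-type and 1310 to 3710 in adr-2(-), and without replicate 3 the median was -0.02. All 8 germline markers lay higher, with a median of 0.27 and library medians of -0.00, 0.33 and 0.46 in adr-2(-). Their part in the sperm, oocyte and collagen values was not tested.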
